A study of Homo sapiens with 2 samples.

Results

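The aryl hydrocarbon receptor (AHR), its binding partner, its repressor and its classical target genes form a group of 8 genes. AHR, ARNT, AHRR, CYP1A1, CYP1B1, TIPARP, NQO1 and ALDH3A1 were taken by symbol from a table of raw counts for 62699 gene IDs. They form a known pathway and were chosen by name when the counts and ratios of these libraries were already known, so the members' levels and ratios are descriptions. Polyadenylated RNA had been sequenced from HCC1954, an established human breast cancer cell line labelled HER2-positive. Both libraries are described as coming from this line. The genotype label reads ASO-1235 for 1 library, whose title begins with Si, and ASO-NC for the other, whose title begins with NC. The labels do not spell these out, and dose, time after treatment and number of cultures are not stated in the sources used here. The series title asks about the role of LINC01235 in the transcription of these cells.

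AHR is a transcription factor of the bHLH-PAS family that waits in the cytoplasm, bound to HSP90 chaperones, until it meets a ligand such as a dioxin, a plant indole or a tryptophan metabolite. It then enters the nucleus, pairs with ARNT and binds DNA at the core letters GCGTG. Its best known targets are enzymes of xenobiotic metabolism (CYP1A1, CYP1B1, NQO1 and ALDH3A1) and the feedback inhibitors AHRR and TIPARP. In breast epithelium the pathway is known for the oxidation of estradiol and of polycyclic hydrocarbons.

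AHR itself stood highest in ratio among the members, and its targets were unequal. In the ASO-1235 library AHR was 2.34-fold, CYP1A1 1.52-fold, TIPARP 1.44-fold and CYP1B1 1.23-fold the level of the ASO-NC library. ARNT and AHRR had intervals that included 1, NQO1 was slightly lower at 0.883-fold, and ALDH3A1 had 0 counts in both libraries. With a single library on each side there is no replicate check, and no test was made. The ratios compare these libraries, not the conditions, and fewer cells of a kind cannot be told apart from less RNA per cell.

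The ASO-1235 library held 37916307 counts and the ASO-NC library 48092494. Libraries were scaled by TMM, levels are given as CPM (counts relative to the scaled library size), and each ratio divides the ASO-1235 level by the ASO-NC level. Intervals are exact 95% intervals on halved counts, since even numbers were overrepresented among low counts, as when each mate of a read pair is counted. The call of a gene as higher or lower required 1 CPM in either library, a ratio of 1.5-fold or more in that direction and an interval without 1. LINC01235, the gene named in the title, had 0 counts in the ASO-1235 library and 1337 (28.6 CPM) in the ASO-NC library. HER2 and luminal epithelial markers were present, with 7 of 7 at 1 CPM or more. Their summed levels were 9038 CPM in the ASO-1235 library and 9538 CPM in the ASO-NC library. These genes are not particular to HCC1954. ESR1, the estrogen receptor gene, was singled out after its values were seen. It had 2398 counts in ASO-1235 (61.4 CPM) and 2720 in ASO-NC (58.2 CPM). The identity of the line was not tested. Of 5 immune markers, 1 reached 1 CPM, with sums of 1.54 CPM in ASO-1235 and 2.18 CPM in ASO-NC. Among 6 fibroblast markers 1 did so (COL1A1), with sums of 40.8 CPM in ASO-1235 and 45.1 CPM in ASO-NC. Of these 6, 4 had counts in ASO-1235 and 5 in ASO-NC, and PDGFRB was at 0 in both. Of 5 endothelial and adipocyte markers 2 did, with sums of 10.7 CPM in ASO-1235 and 13.1 CPM in ASO-NC. No hepatocyte marker out of 4 reached 1 CPM, with sums of 1.15 CPM in ASO-1235 and 0.75 CPM in ASO-NC. Of these 4, 3 had counts in each library, and APOA1 was at 0 in both. ALB had 36 counts in ASO-1235 (0.92 CPM) and 19 in ASO-NC (0.41 CPM). The part of other cell types in the members' ratios was not tested.

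Promoter windows are shown for AHR, CYP1A1 and TIPARP, whose ratios were the highest of the members, and for NQO1, whose ratio was the lowest. Each runs from 250 bases before to 50 bases after an annotated transcript start (RefSeq, GRCh38.p14), is written 5′ to 3′ on the gene's strand, and has GCGTG, or CACGC where it lies on the opposite strand, in capitals. The windows lie at chr7:17298402-17298701 on the plus strand (AHR), chr15:74725479-74725778 on the minus strand (CYP1A1), chr3:156674340-156674639 on the plus strand (TIPARP, the first of its 3 windows) and chr16:69726511-69726810 on the minus strand (NQO1).
AHR: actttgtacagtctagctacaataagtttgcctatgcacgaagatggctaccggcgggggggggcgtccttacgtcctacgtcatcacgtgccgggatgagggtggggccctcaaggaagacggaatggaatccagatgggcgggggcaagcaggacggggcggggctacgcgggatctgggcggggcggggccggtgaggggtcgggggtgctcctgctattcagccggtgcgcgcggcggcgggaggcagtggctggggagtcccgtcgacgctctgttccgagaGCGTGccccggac
CYP1A1: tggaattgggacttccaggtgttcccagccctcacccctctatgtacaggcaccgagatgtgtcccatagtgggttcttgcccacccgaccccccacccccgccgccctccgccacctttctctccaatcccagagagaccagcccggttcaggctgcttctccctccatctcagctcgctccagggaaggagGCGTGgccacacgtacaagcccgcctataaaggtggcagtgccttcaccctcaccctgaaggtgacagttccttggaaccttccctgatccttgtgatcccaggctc
TIPARP: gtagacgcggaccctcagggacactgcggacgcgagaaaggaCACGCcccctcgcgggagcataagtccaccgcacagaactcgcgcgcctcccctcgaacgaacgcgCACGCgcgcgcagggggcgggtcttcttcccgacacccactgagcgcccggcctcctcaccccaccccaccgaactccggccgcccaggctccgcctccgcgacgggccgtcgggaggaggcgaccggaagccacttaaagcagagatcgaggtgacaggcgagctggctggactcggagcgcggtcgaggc
NQO1: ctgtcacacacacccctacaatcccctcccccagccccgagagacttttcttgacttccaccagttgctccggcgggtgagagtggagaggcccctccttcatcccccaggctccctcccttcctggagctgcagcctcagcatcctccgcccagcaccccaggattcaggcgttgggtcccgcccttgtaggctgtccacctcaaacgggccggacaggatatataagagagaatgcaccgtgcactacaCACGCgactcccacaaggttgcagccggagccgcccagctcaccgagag

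GCGTG, searched on both strands, occurred at +38 in the AHR window, at -57 in that of CYP1A1, at -208 and -142 in that of TIPARP and at +2 in that of NQO1, given by the first base of the match with the start counted as 1 and the base before it as -1. The TIPARP and NQO1 matches lie on the opposite strand. The first AHRR window held 1 match and the second 2, and the ARNT window held 0. TIPARP windows 2 and 3, which are not shown, each held 0 matches. Over all windows of this length in the table, 36.5% of 35116 held GCGTG, so a match is common. The longer form TNGCGTG, which contains GCGTG, was found in 5.51% of windows, and among the members in NQO1 and in the first AHRR window. GCGTG is also one form of the hypoxia response core, and these letters do not tell the factors apart. An antioxidant response core, TGACNNNGC, was present in 13.3% of windows and among the members in ARNT alone. Sequence beyond these windows was not searched, so a window without a match does not show that the gene lacks such a site. Binding of AHR at the matches was not tested. CYP1B1 and ALDH3A1 had no window of this kind in the table. Among genes at 1 CPM with a window in the table, the median log2 ratio was -0.0017 over 6204 genes with GCGTG and 0.0045 over 4456 genes without it. With TNGCGTG the median was -0.0048 over 998 genes and without it 0.00087 over 9662. A gene counts here as holding a motif if any of its windows held it. By that count more genes held GCGTG than lacked it, unlike the share per window over all windows.

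AHR, the receptor (ENSG00000106546.14, chromosome 7 from 16916359 to 17346152 on the plus strand, GRCh38, GENCODE 29), had 1785 counts in the ASO-1235 library and 912 in the ASO-NC library. These correspond to 45.7 CPM (95% interval 42.8 to 48.8) in ASO-1235 and 19.5 CPM (17.8 to 21.4) in ASO-NC, and the counting intervals lie well apart. The log2 ratio was 1.23 (1.06 to 1.39). Among the 14352 genes at 1 CPM this ratio ranked 231, and among the 2870 genes of its expression quintile, at a mean of 29.3 to 67.9 CPM, it ranked 5.

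ARNT, the nuclear partner that AHR needs to bind DNA (ENSG00000143437.21, chromosome 1 from 150809705 to 150876768 on the minus strand), had 1389 counts (35.6 CPM) in ASO-1235 and 1700 (36.4 CPM) in ASO-NC. Its ratio was 0.977 (0.883 to 1.08), so a difference between the libraries was not detectable at this depth. The partners of the receptor pair were unequal in ratio, with a log2 difference, AHR minus ARNT, of 1.26 (1.04 to 1.48). Per kb of exon, AHR stood at 1.04 times the level of ARNT in ASO-1235 and at 0.433 times in ASO-NC. With the longest transcript as the length the values were 0.903 and 0.377, so which of the pair is the more abundant in ASO-1235 depends on the length used.

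AHRR, a repressor that competes with AHR for ARNT and is itself an AHR target (ENSG00000063438.20, chromosome 5 from 304176 to 438291 on the plus strand), was the least abundant measured member. It had 258 counts in ASO-1235 (6.61 CPM, 5.52 to 7.85) and 280 in ASO-NC (6.0 CPM, 5.04 to 7.08), and these intervals overlap. The ratio of 1.10 (0.861 to 1.41) left a difference of up to about 1.4-fold undetected at this depth. Relative to AHR per kb, AHRR stood at 0.152 in ASO-1235 and 0.323 in ASO-NC. The count is uncertain because PDCD6, which overlaps AHRR on the same strand and shares 244 exon bases with it, had 2059 counts in ASO-1235 and 2821 in ASO-NC. The readthrough gene PDCD6-AHRR had 0 counts in ASO-1235 and 3 in ASO-NC.

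TIPARP, a mono-ADP-ribosyltransferase (PARP7) that is induced by AHR and modifies it in a negative feedback (ENSG00000163659.13, chromosome 3 from 156673235 to 156706770 on the plus strand), had 1599 counts in ASO-1235 and 1330 in ASO-NC. The levels were 40.9 CPM (38.2 to 43.9) in ASO-1235 and 28.5 CPM (26.4 to 30.7) in ASO-NC. At a ratio of 1.44 (1.30 to 1.60) TIPARP missed the 1.5-fold call, although its interval excluded 1 and its rank within its expression quintile was 57 of 2870. The divergent transcript TIPARP-AS1, which shares 37 exon bases with it, had 12 counts in ASO-1235 and 31 in ASO-NC.

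**Figure D1:**
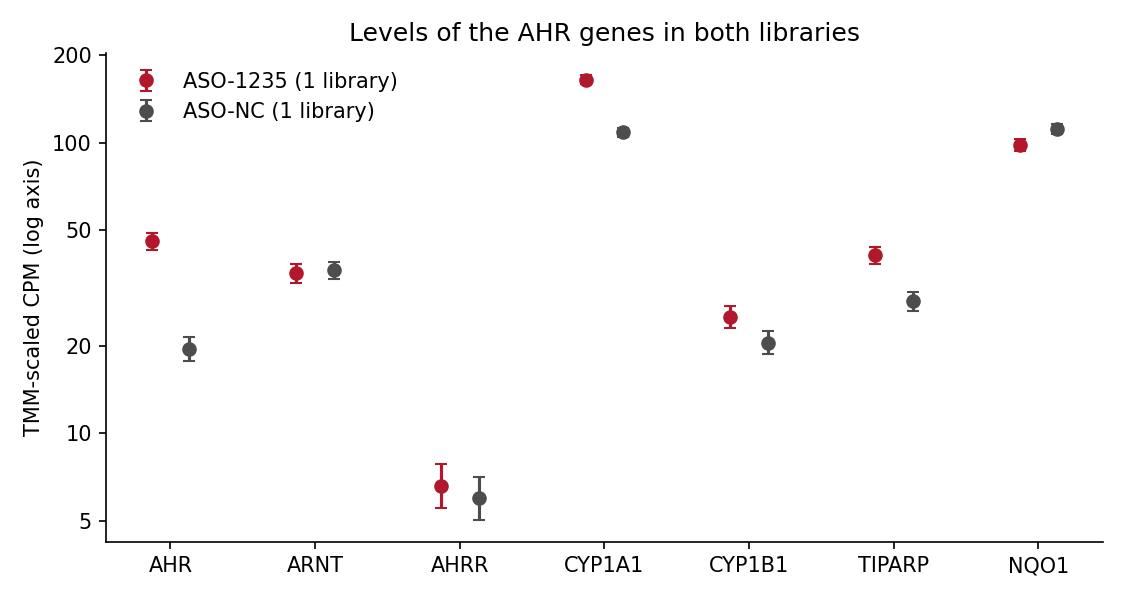
TMM-scaled CPM (log axis) of the 7 measured members in the ASO-1235 library (red) and the ASO-NC library (grey), with exact 95% intervals on halved counts as bars. ALDH3A1, at 0 counts in both libraries, cannot be drawn on a log axis. AHR, CYP1A1, CYP1B1 and TIPARP lie higher in ASO-1235, and NQO1 lies lower.

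CYP1A1, the cytochrome P450 that hydroxylates polycyclic hydrocarbons and the standard readout of AHR activity (ENSG00000140465.15, chromosome 15 from 74719542 to 74725610 on the minus strand), was abundant in both libraries. It had 6431 counts in ASO-1235 (165 CPM, 159 to 170) and 5059 in ASO-NC (108 CPM, 104 to 113). Its ratio was 1.52 (1.44 to 1.60), just past the 1.5-fold call, with a rank of 17 among the 2871 genes of highest expression. CYP1A2, the neighbouring AHR-responsive P450 gene, was singled out after its values were seen. It had 82 counts in ASO-1235 and 66 in ASO-NC, a ratio of 1.49 (0.917 to 2.43) whose interval includes 1.

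CYP1B1, a P450 that hydroxylates estradiol and is expressed in breast tissue (ENSG00000138061.12, chromosome 2 from 38066973 to 38109902 on the minus strand), had 982 counts in ASO-1235 (25.1 CPM) and 957 in ASO-NC (20.5 CPM). The ratio of 1.23 (1.08 to 1.39) had an interval above 1 without reaching the 1.5-fold call. The log2 difference, CYP1A1 minus CYP1B1, was 0.31 (0.11 to 0.51), and CYP1A1 minus TIPARP was 0.08 (-0.09 to 0.25), an interval that includes 0. On the opposite strand CYP1B1-AS1, which shares 678 exon bases with CYP1B1, had 71 counts in ASO-1235 and 29 in ASO-NC, a ratio of 2.93 (1.55 to 5.82). RMDN2, also on the opposite strand and sharing 96 exon bases, had 64 counts in ASO-1235 and 54 in ASO-NC. The strand setting of the counting is not given in the sources used here, so reads of these genes cannot be told apart.

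NQO1, a quinone reductase induced through AHR and through the antioxidant factor NRF2 (ENSG00000181019.13, chromosome 16 from 69706996 to 69726951 on the minus strand), had 3833 counts in ASO-1235 (98.2 CPM, 93.8 to 103) and 5190 in ASO-NC (111 CPM, 107 to 116). Its ratio of 0.883 (0.832 to 0.937) lay below 1, opposite to that of CYP1A1. The log2 difference, CYP1A1 minus NQO1, was 0.78 (0.67 to 0.90). ALDH3A1, an aldehyde dehydrogenase of the AHR gene battery (ENSG00000108602.18, chromosome 17 from 19737984 to 19748943 on the minus strand), had 0 counts in both libraries. A count of 0 allows up to 0.189 CPM in ASO-1235 and 0.158 CPM in ASO-NC, the upper ends of the exact intervals on halved counts, and no ratio can be given. A floor of 3 deposited counts lies lower, at 0.0768 CPM in ASO-1235 and 0.0642 CPM in ASO-NC.

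Of the 8 members, 7 reached 1 CPM. The 1.5-fold rule called 2 of them higher (AHR and CYP1A1) in the ASO-1235 library and 0 lower, where the same rule called 5.20% of all genes tested higher and 2.0% lower. These shares stand for 746 genes higher and 287 lower, a split that was 1032 higher and 180 lower with scaling by total count. At 2-fold AHR alone was called higher and 0 were called lower, beside 2.40% higher and 0.495% lower over all genes. Since the members were proposed with this contrast known, these shares are printed beside the counts and nothing is read from them. The median log2 ratio of the 7 was 0.30, and that of all genes tested was 0.00087. Calls grew rarer with expression, from 15.05% called higher in the lowest expression quintile to 1.15% in the quintile that holds AHR, ARNT and TIPARP and 0.697% in the quintile that holds CYP1A1 and NQO1.

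**Figure D2:**
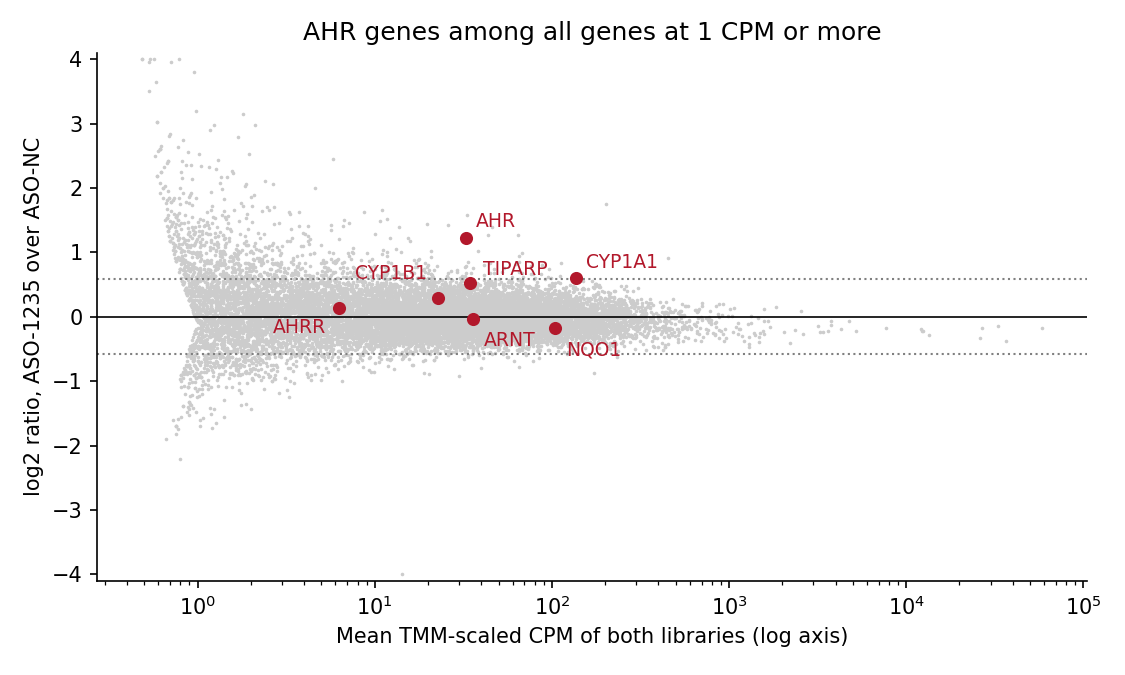
Log2 ratio of ASO-1235 over ASO-NC against the mean TMM-scaled CPM of both libraries (log axis) for 14352 genes (grey), with the 7 measured members in red and dotted lines at 1.5-fold. AHR at 1.23 and CYP1A1 at 0.60 lie above the upper line, TIPARP just under it. Genes beyond 4 on the log2 scale, 6 in number, are drawn at the edge.

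In level per kb of exon the ASO-1235 library had the order CYP1A1 (47.9 CPM per kb), NQO1 (30.2), TIPARP (8.11), AHR (5.66), ARNT (5.46), CYP1B1 (4.18) and AHRR (0.860). The ASO-NC library had the order NQO1 (34.2 CPM per kb), CYP1A1 (31.5), TIPARP (5.64), ARNT (5.59), CYP1B1 (3.41), AHR (2.42) and AHRR (0.781). AHR thus stood ahead of ARNT and CYP1B1 in ASO-1235 and behind both in ASO-NC. Counting intervals of AHR and ARNT overlapped in ASO-1235, as did those of TIPARP and ARNT in ASO-NC. With the longest transcript as the length CYP1A1 (40.4 CPM per kb) preceded NQO1 (38.2) in ASO-NC and ARNT (7.45) preceded TIPARP (6.81), while in ASO-1235 ARNT (7.28) preceded AHR (6.57).

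Ratios in this pair of libraries varied with the base composition of the transcripts, and the members differ in it. In the quintile of genes of lowest GC content, 27.8% to 40.9%, the median log2 ratio was 0.21, and in the highest quintile, 57.9% to 76.0%, it was -0.19. The longest AHR transcript has 38.2% GC, that of TIPARP 42.8%, of CYP1B1 44.1%, of NQO1 46.0%, of ARNT 47.1%, of CYP1A1 53.3% and of AHRR 57.4%. With a trend on GC content and length removed, AHR had a log2 ratio of 0.98 (0.82 to 1.15), under 2-fold and still past 1.5-fold. CYP1A1 moved the other way, to 0.71 (0.63 to 0.78), and TIPARP stood at 0.41 (0.26 to 0.56) and CYP1B1 at 0.19 (0.01 to 0.38). The log2 ratio of NQO1 was then -0.21 (-0.30 to -0.13).

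**Figure D3:**
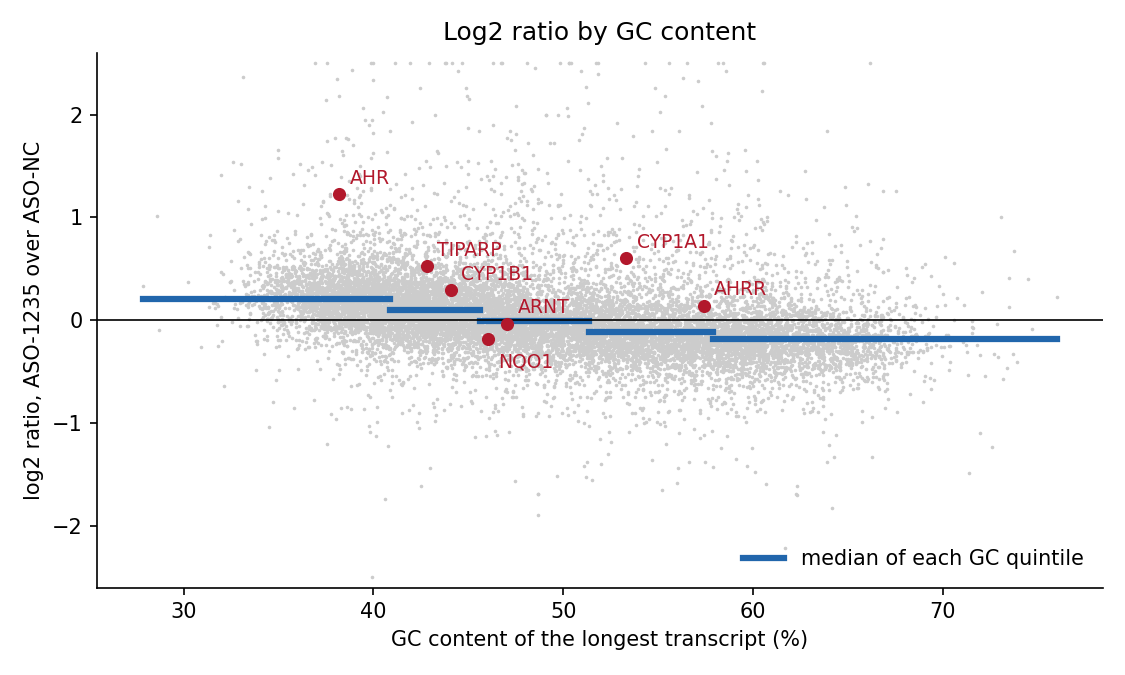
Log2 ratio of ASO-1235 over ASO-NC against the GC content of the longest transcript in percent, for all genes tested with a known transcript (grey), with the median of each quintile of GC content (blue) and the 7 measured members (red). The medians descend from 0.21 to -0.19, and AHR, at 38.2% GC, and CYP1A1, at 53.3% GC, lie above the median of their quintiles. Genes beyond 2.5 on the log2 scale, 30 in number, are drawn at the edge.

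**Figure D4:**
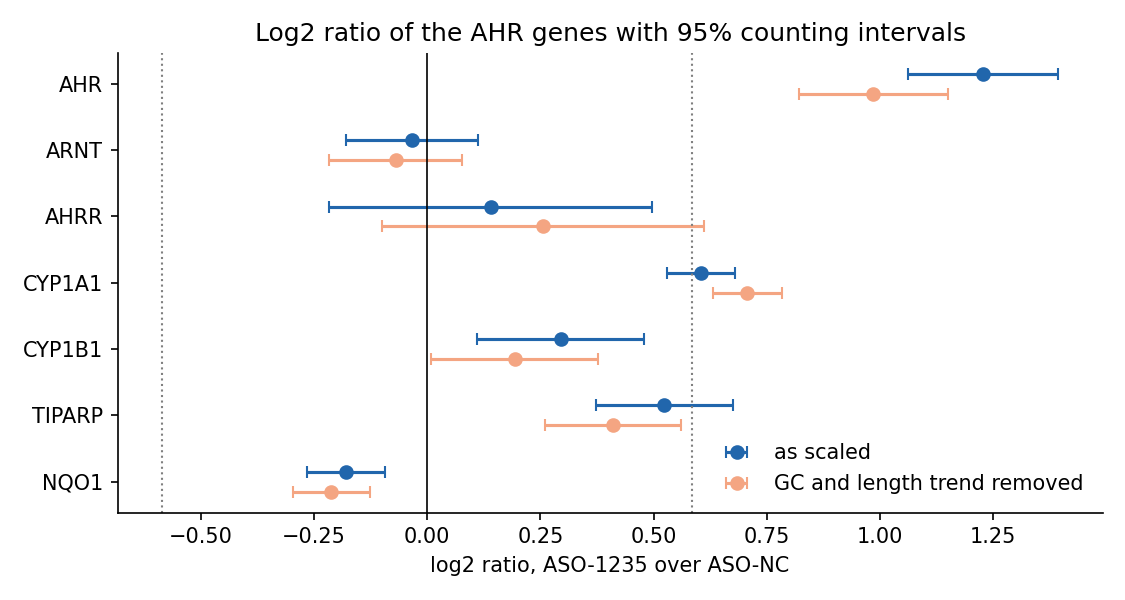
Log2 ratio of ASO-1235 over ASO-NC for the 7 measured members with 95% counting intervals on halved counts, as scaled (blue) and with the GC and length trend removed (orange). Dotted lines mark 1.5-fold either way. AHR and CYP1A1 stand past the line in both forms, at 1.23 and 0.60 as scaled and at 0.98 and 0.71 with the trend removed.

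The other genes of the pathway were taken from 8 lists with 96 distinct genes, of which 77 reached 1 CPM. By the 1.5-fold rule 8 of the 77 (10.4%) were called higher in the ASO-1235 library and 1 (1.30%) was called lower, beside 5.20% and 2.0% of all genes, and their median log2 ratio was 0.08.

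Genes of the cytoplasmic AHR complex and of AHR turnover had ratios near or below 1. All 10 reached 1 CPM, 0 were called in either direction, and the median log2 ratio was -0.17, with 8 of 10 below 0. It was -0.09 with scaling by total count and -0.07 once the trend on GC and length was taken out. The highest was CUL4B, the scaffold of an AHR-associated ubiquitin ligase, with 1593 counts in ASO-1235 and 1699 in ASO-NC, a ratio of 1.12 (1.02 to 1.24). SRC, a kinase found in the complex, had the lowest ratio at 0.793 (0.575 to 1.09) from 136 counts in ASO-1235 and 205 in ASO-NC. Of the chaperones, singled out after their values were seen, HSP90AA1 stood at 0.957 (0.942 to 0.971) and HSP90AB1 at 0.879 (0.864 to 0.895).

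The bHLH-PAS relatives of AHR and ARNT had a median log2 ratio of 0.35 over the 10 of 13 that reached 1 CPM, with 9 above 0. Called higher were 2, both of low level. NPAS3, a neuronal member, had 195 counts in ASO-1235 and 143 in ASO-NC, a ratio of 1.63 (1.19 to 2.24). BMAL2, a paralogue of the clock factor BMAL1, had 95 counts in ASO-1235 and 72 in ASO-NC, a ratio of 1.58 with an interval (1.002 to 2.5) that barely excludes 1. The lowest was ARNT2, the closest relative of ARNT, with 173 counts in ASO-1235 and 292 in ASO-NC, a ratio of 0.708 (0.537 to 0.931). With a minimum of 5 CPM the median was 0.27.

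Among 14 coregulators and binding partners the median log2 ratio was 0.15, with 2 called higher and 0 lower. RELB, an NF-kB subunit that can pair with AHR, had 732 counts in ASO-1235 and 434 in ASO-NC, a ratio of 2.02 (1.70 to 2.40). KLF6, a zinc finger factor described as an AHR partner on non-classical sites, had 5627 counts in ASO-1235 and 3778 in ASO-NC, a ratio of 1.78 (1.68 to 1.89). SMARCA4, the ATPase of a chromatin remodelling complex, was the lowest at 0.889 (0.862 to 0.916).

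Enzymes that make or use kynurenine, an endogenous AHR ligand, were sparse. Of 10 genes, 4 reached 1 CPM and 0 were called, with a median log2 ratio of 0.11. The median was 0.0037 once the GC and length trend was taken out, and 1 gene was called higher with scaling by total count. KMO, which hydroxylates kynurenine, was highest at 1.43 (1.24 to 1.64) from 894 counts in ASO-1235 and 748 in ASO-NC. AFMID, the formamidase that releases kynurenine, was lowest at 0.957 (0.786 to 1.16), equal in ratio to KYAT3. The entry enzymes, singled out after their counts were seen, were near 0: IDO1 had 0 counts in ASO-1235 and 3 in ASO-NC, TDO2 had 4 counts in ASO-1235 and 0 in ASO-NC, and IDO2 had 0 in both.

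Of 27 further AHR-responsive genes 18 reached 1 CPM, and 4 of these were called higher and 0 lower, with a median log2 ratio of 0.17. With a minimum of 5 CPM the median was 0.04 and 2 were called. EREG, the growth factor epiregulin, had 84 counts in ASO-1235 and 35 in ASO-NC, a ratio of 2.87 (1.61 to 5.34). CXCL8, the gene of interleukin 8, had 554 counts in ASO-1235 and 270 in ASO-NC, a ratio of 2.45 (1.99 to 3.04). XDH, xanthine dehydrogenase, had 50 counts in ASO-1235 and 30 in ASO-NC, a ratio of 1.99 (1.01 to 4.07), and its interval nearly reaches 1. POLK, a translesion DNA polymerase, had 1222 counts in ASO-1235 and 941 in ASO-NC, a ratio of 1.55 (1.37 to 1.75). The lowest was STC2, a secreted glycoprotein gene, at 0.856 (0.815 to 0.899).

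The NRF2 genes that share regulation with NQO1 had a median log2 ratio of -0.02 over 9 genes, 0 of them called. That sign turned under other settings, to 0.07 with scaling by total count, 0.05 with a minimum of 5 CPM and 0.03 with the GC and length trend removed. GCLM, a subunit of glutamate-cysteine ligase, was highest at 1.24 (1.02 to 1.499), and SRXN1, sulfiredoxin, was lowest at 0.717 (0.397 to 1.27) from 42 counts in ASO-1235 and 70 in ASO-NC. Relatives of the enzymes ALDH3A1 and NQO1 numbered 4, with 0 called and a median of -0.13. ALDH3B2 was abundant, with 41408 counts in ASO-1235 and 60690 in ASO-NC, and had the lowest ratio of the 4 at 0.816 (0.802 to 0.830), whereas ALDH3B1 was highest at 1.18 (0.965 to 1.44).

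PARP relatives of TIPARP with mono-ADP-ribosyl activity had a median log2 ratio of -0.05 over the 9 of 10 at 1 CPM, and its sign depended on the setting. It was 0.04 with scaling by total count, -0.15 with a minimum of 5 CPM and -0.14 once the trend on GC and length was taken out. PARP10 was called lower, with 217 counts in ASO-1235 and 417 in ASO-NC, a ratio of 0.622 (0.489 to 0.788). The highest was PARP8 at 1.34 (1.18 to 1.53), compared with 1.44 for TIPARP.

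**Figure D5:**
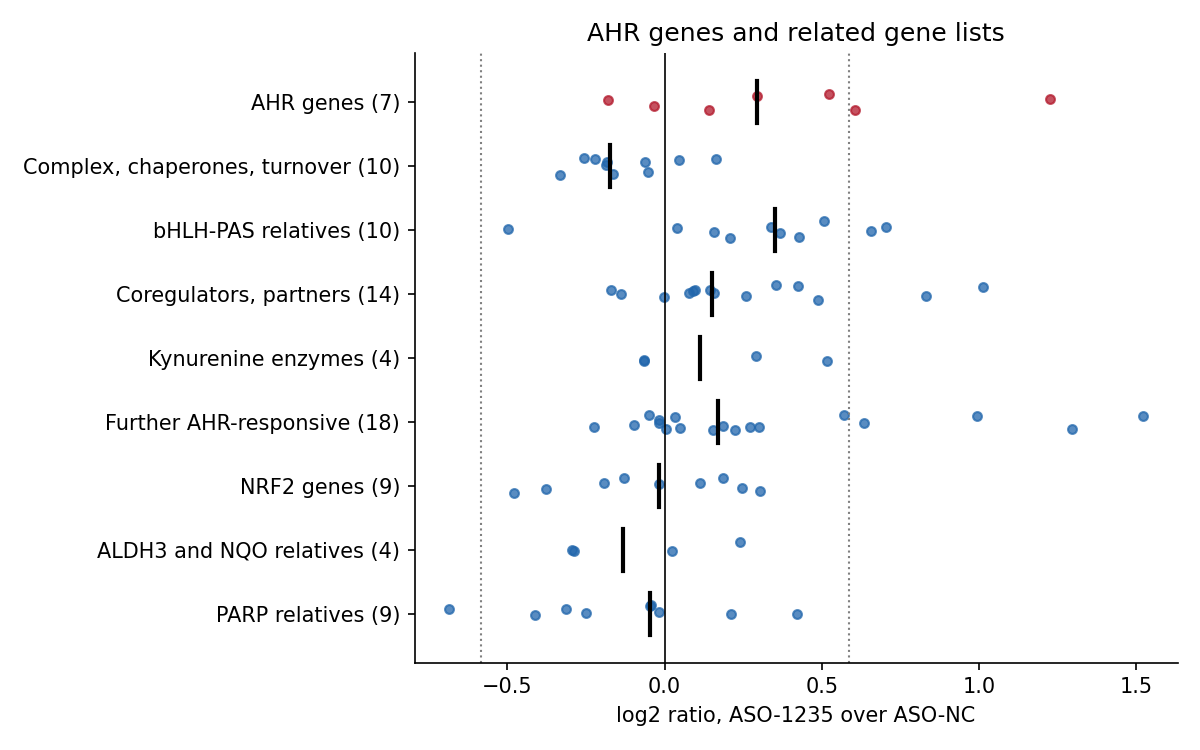
Log2 ratio of ASO-1235 over ASO-NC for the 7 measured members (red) and for the genes at 1 CPM of 8 related lists (blue), 1 point per gene, spread vertically for legibility, with the median as a black bar and dotted lines at 1.5-fold. Numbers in parentheses count genes. Medians run from -0.17 for the complex and its turnover to 0.35 for the bHLH-PAS relatives as scaled. With the GC and length trend removed the lowest is -0.14, for the PARP relatives, and the complex stands at -0.07.

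The 5 protein-coding genes nearest to AHR in log2 ratio were chosen among 2761 whose mean CPM lay within 1.5-fold of that of AHR. Likeness here means nearness in ratio over 2 libraries. They were EGR1 (log2 ratio 1.27, a distance of 0.04 from AHR), PGM2L1 (1.39, 0.16), CREBRF (1.42, 0.19), ARRDC3 (1.03, 0.20) and CREB5 (1.58, 0.35). EGR1, an immediate early transcription factor gene, had 2403 counts in ASO-1235 and 1194 in ASO-NC. Its longest transcript has 55.4% GC, whereas the other 4 have 35.8% to 39.9%, near the 38.2% of AHR.

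Genes annotated across AHR had few counts. An antisense gene that shares 270 exon bases with AHR, ENSG00000237773, had 40 counts in ASO-1235 and 36 in ASO-NC, and a same-strand protein-coding gene that shares 2373 exon bases, ENSG00000283321, had 0 in both. Whether reads in these shared bases were counted was not tested. A count of 0 therefore does not show that the overlapping gene is silent, and AHR levels per kb could be too low. The antisense gene ENSG00000261602, which shares 575 exon bases with NQO1, had 0 counts in both libraries, as did RMDN2-AS1, which shares 69 with CYP1B1, and ENSG00000264785, which shares 98 with ALDH3A1.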

How the data were processed

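RNA was sequenced from 1 library labelled ASO-1235 and 1 labelled ASO-NC. The authors deposited whole-number counts for each gene ID, with no normalization visible in the values. Per the submitters' processing notes, STAR 2.7.11a and featureCounts 2.0.6 were used with build hg38. Neither annotation release nor strand setting is given in the sources used here. All 62699 IDs with counts matched an entry in the gene names used, where some genes have only their ID as a name. The 3 lines without counts were left out. Lengths, GC content and gene positions came from GENCODE 29, and promoter sequences from RefSeq. Of the 62699 IDs, 58206 are in GENCODE 29, so the counting used another annotation. Levels per kb and shared exon bases could differ in that annotation.

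Even numbers made up 64.0% of the values between 1 and 1000 in ASO-1235 and 67.5% in ASO-NC. Ratios used TMM factors of 1.03 for ASO-1235 and 0.971 for ASO-NC over genes at 1 CPM (edgeR 4.0.16), with Clopper-Pearson intervals given the sum of both counts. Intervals of differences between members are normal approximations on halved counts. Amplified reads that carry no molecular identifier can repeat a molecule, so intervals and floors cover counting error only. The GC and length trend was fitted by robust regression (statsmodels 0.14.6) using B-splines of 5 degrees of freedom for GC and for log2 length, known for 97.7% of genes.

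Members and lists were chosen with earlier results of these data known. Named are all members, LINC01235, list genes called at 1.5-fold, the highest and lowest of each list, genes that share exon bases with a member, and the 5 nearest to AHR. CYP1A2, ESR1, KYAT3, NPAS1, the HSP90 genes, IDO1, IDO2 and TDO2 were singled out after their values were seen. So were ALB, APOA1, COL1A1 and PDGFRB among the cell type markers. Alternatives were other scalings (DESeq2 1.42.0 size factors, upper quartile, total count), intervals, minimum levels, sizes and a prior count of 5. Scaling over all genes and the longest transcript length were added after the data were seen.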

Additional observations from a re-analysis of the deposited data

How the results depend on the processing

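No paired analysis was possible because each group has 1 library, and for the same reason no replicate could be left out. Under all scalings, trend removal and the prior count of 5, the 7 measured members kept the sign of their log2 ratio except ARNT, which was at 0.05 with scaling by total count, where the median of all genes moved by 0.09. Removal of the GC and length trend moved AHR to 0.98 and CYP1A1 to 0.71, and scaling by total count moved CYP1A1 to 0.69. AHR and CYP1A1 were called higher under each scaling, CYP1A1 at 0.59 and so at the 1.5-fold line with TMM over all genes of the table, and total count added TIPARP at 0.61, for 3 members called. At 2-fold 1 member was called. Of the list genes, 5 were called higher with a minimum of 5 CPM and 3 at 2-fold, and 0 were called lower at 2-fold or with the trend removed. With the trend removed the log2 ratios of POLK, BMAL2 and PARP10 were 0.35, 0.46 and -0.51, under 1.5-fold, while NPAS1, named after its value was seen, passed the call at 0.60, which left 7 list genes called higher. TMM over all genes of the table left 6, without BMAL2 and XDH, and scaling by total count gave 10. Over all genes 279 were called higher and 101 lower with a minimum of 5 CPM, 344 and 71 at 2-fold, and 1032 and 180 with scaling by total count, against 746 higher and 287 lower by the rule used. The cause of these moves was not tested. Depth limits AHRR, the rarer relatives and ALDH3A1, while intervals of the abundant members leave the spread between cultures unmeasured.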
